A study of Mus musculus with 12 samples.

Results

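RNA levels after RapaLink-1 and after Torin1, a pair of inhibitors of the kinase mTOR, were compared in MEFs, fibroblasts grown in culture from mouse embryos. The comparison rests on 6 of the 12 libraries of the study, 3 for each compound, and on the 15917 genes, of 49315 in the count tables, that passed a filter on low counts. RapaLink-1 was given at 10 nM and Torin1 at 250 nM, each for 24 h, so every difference below is one between these doses, and it was the only pair of compounds compared. The other 6 libraries, 3 from cells with the solvent DMSO and 3 with rapamycin at 20 ng/ml, are given as reference levels. All cells were kept in DMEM with 10% FBS. The labels name no strain, line or passage, and leave unsaid whether each library had a culture of its own. The p-values therefore reflect no more than library-to-library spread, some or all of which may be technical.

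mTOR is a protein kinase that works in a pair of complexes. Complex 1, which contains Raptor, drives protein, lipid and nucleotide synthesis when growth factors and amino acids are present, and holds back autophagy and lysosome formation. Complex 2, which contains Rictor, phosphorylates AKT and so restrains the FoxO transcription factors. Rapamycin binds the small protein FKBP12, and that pair docks on mTOR in complex 1. Torin1 occupies the ATP pocket of the kinase and so acts on both complexes. RapaLink-1 is a molecule in which rapamycin and an inhibitor of the kinase pocket are linked, so it carries the FKBP12-binding part that Torin1 lacks.

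Total counts ran from 31328365 to 37762480 in the Torin1 libraries and from 30075870 to 36206209 in the RapaLink-1 libraries. Libraries of a group differed little (biological coefficient of variation 1.48%), yet by more than counting noise, at a chi-square per degree of freedom of 1.33 to 1.99 in every pair within these groups. All 14 fibroblast markers listed passed the filter. Of the markers of other cell types, 2 of 8 passed for endothelium, 3 of 10 for macrophages and blood, 5 of 10 for epithelium, 4 of 8 for muscle, 3 of 8 for neural cells and 1 of 6 for pluripotent and germ cells. Cldn3, Tyrobp, Ckm, Myod1, Myog, Olig2, Sox2, Dppa5a, Pou5f1 and Zfp42 had no count in any of the 6 libraries. Levels below are CPM, counts scaled to the library size with TMM factors, given per library or as mean ± SD of 3 libraries.

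The transcriptomes after RapaLink-1 and Torin1 differed at many genes, mostly by small amounts. By edgeR's quasi-likelihood test at an adjusted p under 0.05, 5277 genes (33.2% of those tested) differed, 2659 (16.7%) higher and 2618 (16.4%) lower with RapaLink-1. Of these, 3500 differed by less than 1.2-fold. Larger differences leaned to lower levels with RapaLink-1, where 466 genes (2.93%) were at least 1.5-fold lower and 184 (1.16%) at least 1.5-fold higher. The median log2 fold change over all genes tested was -0.002, with quartiles at -0.12 and 0.10. The 3 RapaLink-1 libraries did not overlap the 3 Torin1 libraries at 6713 genes (42.2%). For scale, the median size of the log2 fold change was 0.11 between the compounds, 0.43 for RapaLink-1 against DMSO and 0.46 for Torin1 against DMSO. Against DMSO the same test called 76.7% of the genes for RapaLink-1, 78.0% for Torin1 and 59.7% for rapamycin, comparisons that share the DMSO libraries. By class of gene, 2589 of 13110 protein-coding genes were higher and 2405 lower, while among 1800 long non-coding RNA genes 55 were higher and 153 lower. In bulk RNA, fewer cells of a type and less RNA per cell cannot be told apart.

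**Figure D1:**
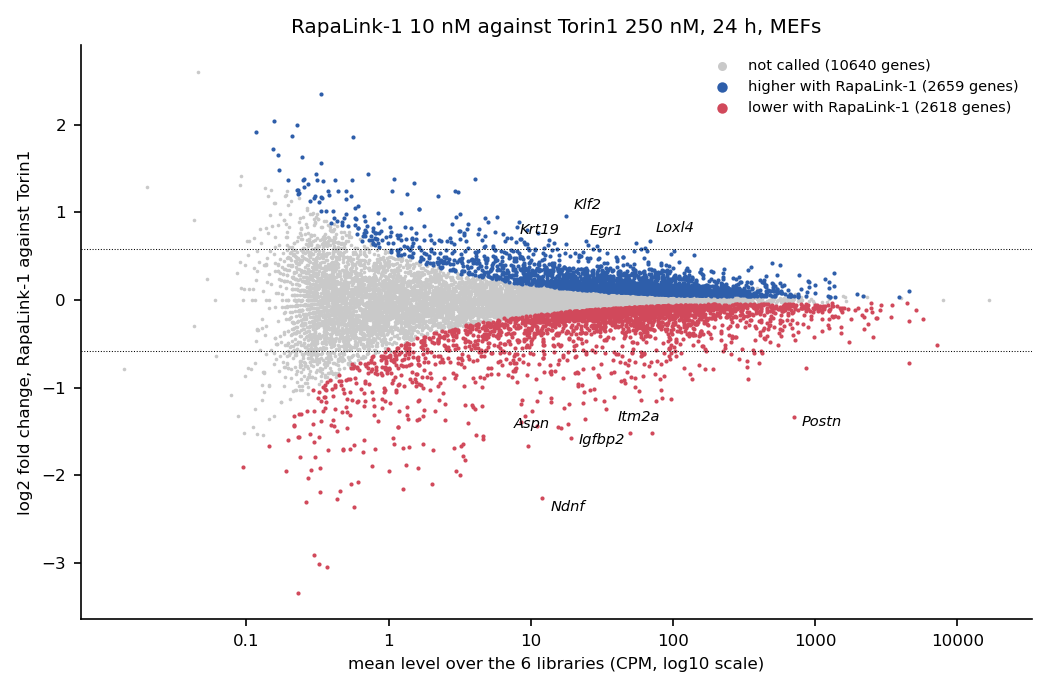
Log2 fold change of RapaLink-1 against Torin1 (y axis) by mean CPM over the 6 libraries (x axis, log10 scale), 1 point per gene tested; dotted lines mark 1.5-fold in each direction. The 466 genes at least 1.5-fold lower reach farther from 0 than the 184 at least 1.5-fold higher, and Postn lies at -1.34.

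At a mean level of 10 CPM or more, the largest differences were in genes lower with RapaLink-1. These genes were chosen for their size in this comparison, so their values describe and do not test it. Ndnf, which encodes a secreted glycoprotein (ENSMUSG00000049001, GRCm38 chr6:65671590-65712326, plus strand), stood at 21.5, 19.6 and 18.6 CPM in the Torin1 libraries and at 3.92, 4.39 and 4.04 CPM with RapaLink-1. The DMSO libraries lay between 5.38 and 5.86 CPM, so only Torin1 was high. The log2 fold change was -2.27 ± 0.077 (SE), a 4.81-fold difference. Postn, which encodes the matricellular protein periostin (ENSMUSG00000027750, GRCm38 chr3:54361109-54391037, plus strand), was at 1010, 1000 and 1010 CPM with Torin1 and at 396, 397 and 397 CPM with RapaLink-1. DMSO cells had 482 CPM on average and rapamycin-treated cells 413 CPM, so again Torin1 stood apart. Its log2 fold change was -1.34 ± 0.016, with an adjusted p of 1e-132.

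Several further genes of this kind stood high with Torin1 and near the DMSO level with RapaLink-1. Itm2a, which encodes a membrane protein, was at 74.5 ± 1.74 CPM with Torin1, 25.9 ± 0.991 CPM with RapaLink-1 and 24.6 CPM with DMSO. Synpo2, which encodes an actin-binding protein, was at 24.0 ± 0.801 CPM with Torin1, 8.61 ± 0.758 CPM with RapaLink-1 and 9.39 CPM with DMSO. The cysteine dioxygenase gene Cdo1 followed the same order at 22.7, 8.32 and 7.93 CPM, as did Fndc1 at 24.1, 10.2 and 9.39 CPM. Others had moved from DMSO with each compound, but less with RapaLink-1. Igfbp2, an IGF-binding protein, was at 4.6 CPM with DMSO, 9.54 ± 0.337 CPM with RapaLink-1 and 28.5 ± 1.08 CPM with Torin1. Lmod1, which encodes an actin filament nucleator of smooth muscle, was at 3.62 CPM with DMSO, 14.3 ± 0.71 CPM with RapaLink-1 and 32.2 ± 1.12 CPM with Torin1. Serpina3n, a protease inhibitor, and Gjb2, a connexin of gap junctions, showed the same order, with log2 fold changes of -1.36 ± 0.052 and -1.27 ± 0.076 between the compounds.

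A few genes were lowest with RapaLink-1. Torin1 had lowered Aspn as well and left the others at or slightly above the DMSO level. Aspn, which encodes the small leucine-rich proteoglycan asporin, was at 47.6 CPM with DMSO, 27.5 CPM with rapamycin, 26.6 ± 0.326 CPM with Torin1 and 9.94 ± 0.249 CPM with RapaLink-1. Cyp26b1, whose product breaks down retinoic acid, was at 25.3 CPM with DMSO and 25.9 ± 1.54 CPM with Torin1, but at 11.4 ± 0.0689 CPM with RapaLink-1. Plxna2, which encodes a semaphorin receptor, was at 42.5 CPM with DMSO, 47.2 ± 2.28 CPM with Torin1 and 20.0 ± 0.584 CPM with RapaLink-1. In these 3 genes the rapamycin libraries averaged 27.5, 16.8 and 26.8 CPM, above the RapaLink-1 level in each.

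**Figure D2:**
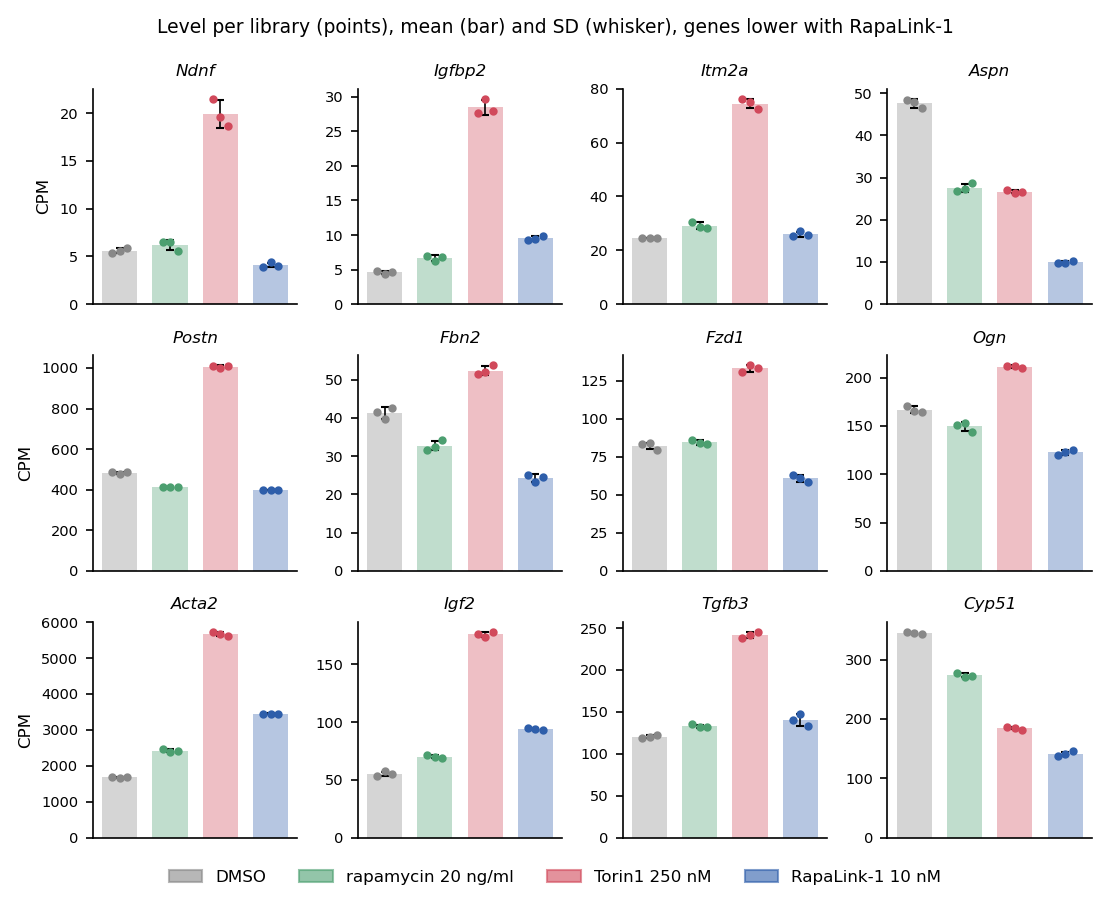
CPM per library (points) with mean (bar) and SD (whisker) of 3 libraries in cells with DMSO, rapamycin, Torin1 or RapaLink-1, for 12 genes lower with RapaLink-1 than with Torin1; each y axis starts at 0. Ndnf, Itm2a and Postn are high only with Torin1, Aspn is lowest with RapaLink-1, and Cyp51 is low with each compound.

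Some genes lay on opposite sides of the DMSO level. The 8 genes named here were taken for that pattern from called genes with at least 10 CPM, so the pattern itself is no finding. All 8 were above DMSO with Torin1 and below it with RapaLink-1. Fzd1, which encodes a Wnt receptor, was at 131, 135 and 133 CPM with Torin1, 62.7, 61.0 and 58.4 CPM with RapaLink-1, and 83.1, 83.7 and 79.6 CPM with DMSO. Against DMSO its log2 fold change was 0.70 ± 0.025 with Torin1 and -0.44 ± 0.029 with RapaLink-1, and the 3 groups did not overlap. Net1, an activator of the GTPase RhoA, was at 0.40 ± 0.023 and -0.38 ± 0.025 against DMSO in that order. Epha7, an ephrin receptor, was at 0.34 ± 0.063 and -0.81 ± 0.074. The matrix genes Fbn2, which encodes a fibrillin, and Ogn, which encodes osteoglycin, were at 0.34 ± 0.036 and 0.34 ± 0.021 with Torin1 and at -0.77 ± 0.041 and -0.45 ± 0.022 with RapaLink-1. Ndnf was at 1.83 ± 0.072 with Torin1 and -0.44 ± 0.099 with RapaLink-1. The proliferin genes Prl2c2 and Prl2c3, of the prolactin family, complete the group at 0.56 ± 0.028 and 1.03 ± 0.069 with Torin1 and -0.96 ± 0.033 and -0.40 ± 0.084 with RapaLink-1. Close copies of these genes may share reads, so their separate values are uncertain.

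**Figure D3:**
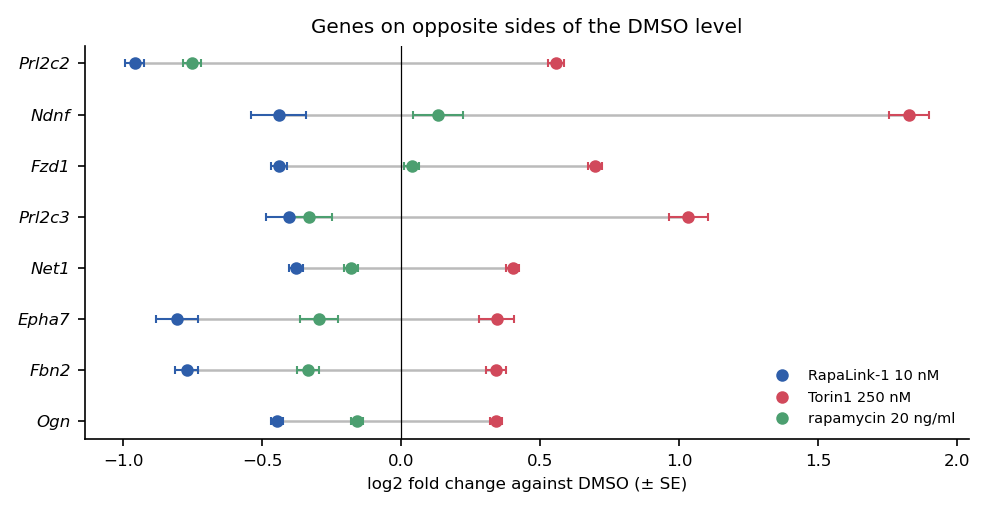
Log2 fold change against DMSO (x axis, ± SE) of the 8 genes chosen for lying on opposite sides of DMSO, with RapaLink-1, Torin1 and rapamycin as points; a grey line joins RapaLink-1 and Torin1. The span between the compounds is widest for Ndnf, from -0.44 to 1.83, and the rapamycin points lie between them in all 8.

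Genes higher with RapaLink-1 differed by less. The largest difference was in Klf2, which encodes a Krüppel-like transcription factor (ENSMUSG00000055148, GRCm38 chr8:72319033-72321656, plus strand). It was at 12.2, 11.6 and 11.9 CPM with Torin1, at 22.9, 24.5 and 22.4 CPM with RapaLink-1, and at 6.02 CPM on average with DMSO. Every RapaLink-1 library was above every library of the other 3 groups, and the fold against Torin1 was 1.95. Loxl4, a lysyl oxidase family enzyme of matrix cross-linking (ENSMUSG00000025185, GRCm38 chr19:42593982-42612813, minus strand), was at 53.2, 52.4 and 52.0 CPM with Torin1, 84.7, 83.6 and 84.1 CPM with RapaLink-1 and 64.7 CPM with DMSO. The compounds thus lay on either side of DMSO, at a log2 fold change of 0.68 ± 0.03 between them. Csrnp1 had the same order, with 9.9 ± 1.32 CPM for Torin1, 14.9 ± 0.647 CPM for RapaLink-1 and 11.8 CPM for DMSO.

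Other genes in this group had fallen from DMSO with each compound, and farther with Torin1. Ucp2, which encodes a mitochondrial carrier, was at 77.4 CPM with DMSO, 30.5 ± 0.195 CPM with RapaLink-1 and 19.8 ± 0.696 CPM with Torin1. Slc30a4, a zinc transporter, was at 145, 71.5 ± 2.92 and 47.7 ± 1.37 CPM in that order, and the adenylate cyclase gene Adcy7 at 25.2, 16.6 ± 1.1 and 10.3 ± 0.225 CPM. Egr1, an immediate early transcription factor, was at 80.4 CPM with DMSO, 66.8 ± 0.822 CPM with RapaLink-1 and 42.7 ± 2.06 CPM with Torin1. The tubulin-modifying enzyme gene Ttll7, Podxl, which encodes a sialomucin, and Ildr2 kept this order, with log2 fold changes of 0.62 ± 0.044, 0.58 ± 0.07 and 0.67 ± 0.047 between the compounds. For Ildr2, 11% of the exonic length overlaps an antisense gene, so its value is uncertain.

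Krt19, a keratin of simple epithelia, was at 14.4, 13.2 and 13.8 CPM with Torin1, 21.8, 21.3 and 21.1 CPM with RapaLink-1 and 14.5 CPM with DMSO. Itga2, a subunit of a collagen-binding integrin, was at 10.4 ± 0.306 CPM with Torin1 and 16.2 ± 0.93 CPM with RapaLink-1, and Col7a1, the collagen of anchoring fibrils, at 21.9 ± 0.947 and 32.9 ± 0.48 CPM. All 3 had libraries that did not overlap. The 5 epithelial markers tested summed to 13.9 to 15.4 CPM with Torin1 and 21.7 to 22.6 CPM with RapaLink-1, nearly all of it Krt19, with Cldn3 at 0. Krt8, another keratin of simple epithelia, was lower with RapaLink-1, at 0.485 ± 0.1 CPM with Torin1 and 0.165 ± 0.0302 CPM with RapaLink-1 (-1.56 ± 0.43, adjusted p = 0.002). Krt5 (95% interval -2.61 to -0.11, adjusted p = 0.0887), Krt14 (-0.93 to 1.25) and Cdh1 (-1.58 to 1.58) were not called. Whether cells of that kind had a part in these values was not tested. All 35 genes chosen for size or for opposite sides, with 1 unnamed gene among them, kept their call and direction in each of the 14 alternative settings, a test against a fold of 1.2 among them.

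**Figure D4:**
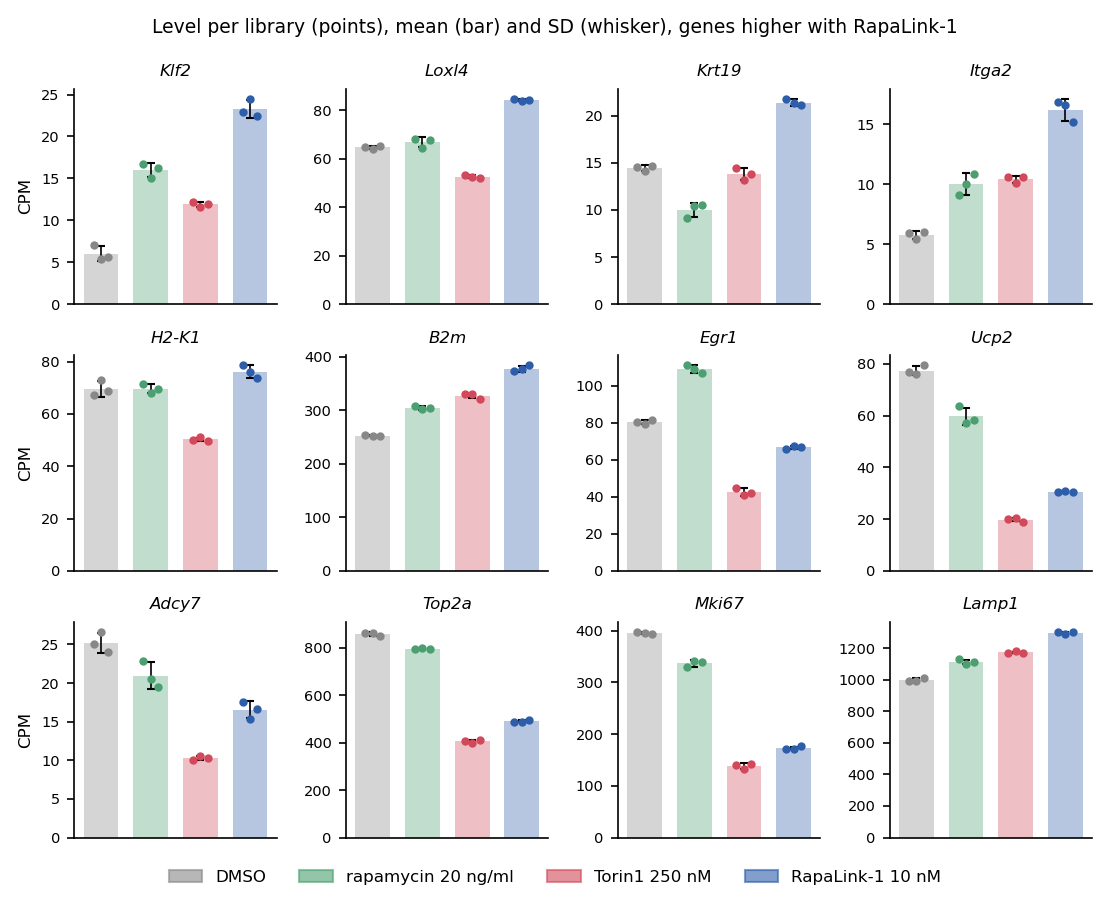
CPM per library (points) with mean (bar) and SD (whisker) of 3 libraries in cells with DMSO, rapamycin, Torin1 or RapaLink-1, for 12 genes higher with RapaLink-1 than with Torin1; each y axis starts at 0. Klf2 and Itga2 exceed all other groups with RapaLink-1, whereas Ucp2, Top2a and Mki67 fell with each compound and lie lowest with Torin1.

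Of 12 subunits and partners of the mTOR complexes, the target of each compound, 2 were higher and 2 lower with RapaLink-1. That is 33.3%, beside 33.2% of all genes tested. Each of the 12 averaged above 10 CPM, and of all genes at that level 4217 of 9382 were called. None of the 12 passed the test against a fold of 1.2. The list's median of -0.006 turned to between 0.0041 and 0.0068 in 4 of the settings. Rictor, the defining subunit of complex 2, was at 140, 136 and 140 CPM with Torin1 and at 121, 122 and 127 CPM with RapaLink-1. Its log2 fold change was -0.17 ± 0.024 (adjusted p = 3.24e-10), and both groups were above the DMSO libraries at 85.1 to 86.3 CPM. Prr5l, a partner of complex 2, was lower at -0.22 ± 0.045. Tti1, which helps to assemble the kinase, was higher at 0.14 ± 0.039. Rptor, the defining subunit of complex 1, was at 69.5 ± 2.2 CPM with Torin1 and 73.6 ± 1.08 CPM with RapaLink-1, and its call (0.08 ± 0.029, adjusted p = 0.0183) was lost without RapaLink-1 replicate 2 (adjusted p = 0.0512) or Torin1 replicate 2 (adjusted p = 0.114). For Mtor no difference was called, with 82.7, 85.3 and 89.4 CPM against 84.7, 82.9 and 81.1 CPM and a 95% interval of the log2 fold change from -0.11 to 0.0024. Nor was one called for Mlst8 (-0.08 to 0.11), Mapkap1 (-0.06 to 0.07), Akt1s1 (-0.07 to 0.04), Telo2 (-0.12 to 0.03), Tti2 (-0.09 to 0.10), Prr5 (-0.03 to 0.23) or Deptor (-0.25 to -0.02), whose adjusted p was 0.0678 and fell to 0.0421 when genes under 5 CPM were left out. Antisense genes overlap 29.6% of Mlst8 and 14.6% of Tti2, whose values are uncertain.

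FK506-binding proteins include FKBP12, encoded by Fkbp1a, which rapamycin and the rapamycin part of RapaLink-1 bind. Of 15 tested, 3 were higher and 2 lower (33.3%, beside 33.2% of all genes), with a median of 0.017 that turned to -0.0021 with the filter at 5 CPM. Fkbp1a was at 297, 295 and 292 CPM with Torin1 and at 272, 280 and 277 CPM with RapaLink-1. All 3 RapaLink-1 libraries were below those of Torin1, by a log2 fold change of -0.09 ± 0.018 (adjusted p = 3.94e-06), and DMSO cells had 380 to 390 CPM. Fkbp5, a co-chaperone of steroid receptors, had fallen from 88.7 to 96.0 CPM with DMSO to 33.4, 36.5 and 34.4 CPM with Torin1 and 40.5, 42.5 and 41.3 CPM with RapaLink-1. It was higher with RapaLink-1 by 0.25 ± 0.038. Fkbp15 (0.12 ± 0.036), Fkbp14 (0.14 ± 0.045) and Fkbp10 (-0.06 ± 0.02) also passed, but Fkbp15 lost its call without Torin1 replicate 2, Fkbp14 without that library or RapaLink-1 replicate 3, and Fkbp10 without RapaLink-1 replicate 1 or 3, without Torin1 replicate 1 and with DESeq2. The remaining 10 were not called, with 95% intervals that reached no farther than -0.19 and 0.40. Among them, Fkbp4 was at 188 ± 1.59 and 184 ± 2.74 CPM and Fkbp9 at 302 ± 0.931 and 307 ± 2.32 CPM.

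Of 28 genes that control mTOR complex 1 from upstream, 3 were higher and 3 lower (21.4%, beside 33.2% of all genes), a difference in share that was not tested. Fnip1, a partner of folliculin, was higher at 0.09 ± 0.024, although the groups overlapped. The GTPase-activating subunit gene Tsc2 was at 0.06 ± 0.022 and Rragd, which encodes a Rag GTPase of the lysosome, at 0.55 ± 0.22. Lamtor2, of the Ragulator scaffold, was at -0.10 ± 0.037 and Sesn3, a sestrin, at -0.10 ± 0.037. Of these, only Fnip1 kept its call when each library was left out in turn. Tsc2 lost it without RapaLink-1 replicate 1 or 2 or Torin1 replicate 1, Rragd without any one of 5 libraries, Lamtor2 without RapaLink-1 replicate 2 or Torin1 replicate 1, and Sesn3 without RapaLink-1 replicate 1 or 2 or Torin1 replicate 1 or 3. None of the 28 was lower with upper-quartile scaling, with DESeq2 or without Torin1 replicate 1, and 1 was lower without RapaLink-1 replicate 2 or Torin1 replicate 3, with DESeq2 size factors or with no filter. Downstream, among 12 effectors that complex 1 uses to set translation, 3 were higher and 5 lower (16.7% and 16.4% of all genes). The lower count was 3 without Torin1 replicate 2. Rps6kb1, which encodes the S6 kinase, stood out at 109, 113 and 111 CPM with Torin1 and 85.6, 85.8 and 84.6 CPM with RapaLink-1. DMSO cells had 112 to 114 CPM, so the lower level was that of RapaLink-1, by a log2 fold change of -0.38 ± 0.025 (adjusted p = 2.13e-31). Eef2k, the kinase of elongation factor eEF2, was lower at -0.22 ± 0.035 and the S6 ribosomal protein gene Rps6 at -0.10 ± 0.015. Eif4ebp2, an inhibitor of cap-dependent translation, and Eif4g1, a scaffold of cap-dependent translation, were higher at 0.15 ± 0.033 and 0.09 ± 0.015.

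**Figure D5:**
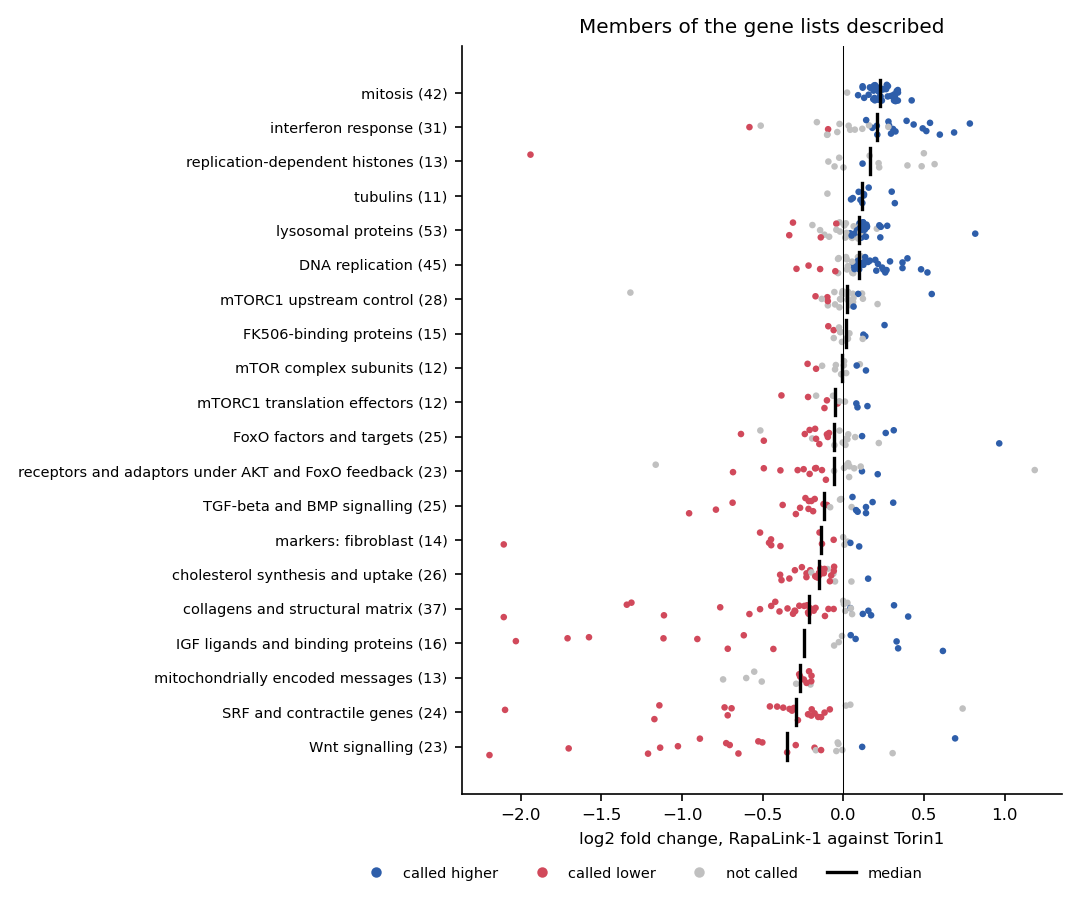
Log2 fold change of RapaLink-1 against Torin1 (x axis) for each tested member of the 20 gene lists described, 1 point per gene, with the number tested in brackets and the median as a black bar. Members of the mitosis list lie between 0.02 and 0.42, whereas the Wnt and IGF lists spread to below -1.

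Receptors and adaptors known to rise when AKT is inhibited and FoxO is active leaned lower with RapaLink-1, with 10 of 23 tested lower and 2 higher. Against a background of 16.4% and 16.7%, their median was -0.06, beside -0.002 for all genes. The higher count was 4 with DESeq2 size factors and 5 with upper-quartile scaling. In the test against a fold of 1.2, 3 were lower and none higher. Egfr, the EGF receptor, was at 60.3, 58.7 and 61.8 CPM with Torin1 and at 37.8, 36.7 and 38.1 CPM with RapaLink-1. DMSO cells had 22.5 to 23.6 CPM, so the rise was smaller with RapaLink-1, by a log2 fold change of -0.68 ± 0.036 (adjusted p = 1.49e-41). Pdgfra, a PDGF receptor, was at 104 ± 1.33 CPM with Torin1, 79.3 ± 1.26 CPM with RapaLink-1 and 82.1 CPM with DMSO. The hepatocyte growth factor receptor gene Met was at -0.17 ± 0.018 and Pik3ip1, an inhibitor of phosphoinositide 3-kinase, at -0.49 ± 0.049. Irs1, the insulin receptor adaptor, was at -0.28 ± 0.03 and is uncertain, since 30.9% of its exonic length overlaps an antisense gene.

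FoxO factors and their targets were mixed, at 4 higher and 10 lower of 25, where 16.7% and 16.4% of all genes were called, so the higher count was near the background. Klf2, listed here as well, was the highest member, as given above. S1pr1, a sphingosine phosphate receptor, was at 53.3 ± 1.71 CPM with Torin1 and 34.3 ± 0.771 CPM with RapaLink-1, and its DMSO libraries lay at 33.2 to 36.5 CPM. Only Torin1 was high, and the log2 fold change was -0.64 ± 0.037 (adjusted p = 2.62e-36). The superoxide dismutase gene Sod2 was lower at -0.24 ± 0.024. Txnip, the thioredoxin-interacting protein gene, was higher at 0.26 ± 0.024, with 124 ± 3.14 and 149 ± 1.9 CPM, and an antisense gene overlaps 19.4% of it.

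Secreted factors of the IGF system differed widely in both directions. Of 16 ligands, receptors, binding proteins and their proteases, 8 were lower and 5 higher with RapaLink-1 (16.4% and 16.7% of all genes). The members ran from -2.03 to 0.62 around a median of -0.25. That median was -0.05 with the filter at 5 CPM, which tests fewer genes. Igf2, a fetal growth factor, was at 176, 174 and 178 CPM with Torin1, 94.7, 94.4 and 93.3 CPM with RapaLink-1 and 53.1 to 57.3 CPM with DMSO. The RapaLink-1 level lay between the others, at a log2 fold change of -0.91 ± 0.024 against Torin1 (adjusted p = 1.69e-79). Pappa, a protease that frees IGF from its binding proteins, went the same way, from 17.0 to 17.6 CPM with DMSO to 52.8 ± 2.26 CPM with RapaLink-1 and 114 ± 3.23 CPM with Torin1. Igfbp4 was at 75.9 ± 1.68 CPM with Torin1 and 49.5 ± 0.619 CPM with RapaLink-1, on either side of 58.6 CPM with DMSO. In contrast Igf2r, which clears IGF2 and sorts lysosomal enzymes, was at 294, 294 and 308 CPM with Torin1 and at 378, 381 and 375 CPM with RapaLink-1, higher by 0.34 ± 0.018 (adjusted p = 1.18e-40).

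Wnt signalling genes were mostly lower with RapaLink-1. Wnt proteins bind Frizzled receptors, and secreted Frizzled-related proteins compete for them. Of 23 tested, 15 were lower and 2 higher with RapaLink-1 (16.4% and 16.7% of all genes). Of the 15, 9 were lower by at least 1.5-fold (2.93% of all genes), and the list's median was -0.35. It was -0.24 with the filter at 5 CPM. The Frizzled receptor gene Fzd7 was at 174, 180 and 176 CPM with Torin1, 138, 141 and 137 CPM with RapaLink-1 and 92.7 to 95.4 CPM with DMSO. Sfrp1, a secreted antagonist, was at 132, 128 and 133 CPM with Torin1, 94.6, 90.8 and 92.4 CPM with RapaLink-1 and 50.2 to 52.2 CPM with DMSO. These genes had risen from DMSO with each compound, and less with RapaLink-1, by log2 fold changes of -0.35 ± 0.022 and -0.50 ± 0.026 between the compounds. The CCN family matricellular gene Ccn5 behaved alike at -0.53 ± 0.022. Sfrp2, another secreted antagonist, had instead fallen, from 91.9 CPM with DMSO to 69.1, 69.3 and 71.6 CPM with Torin1 and 36.8, 38.8 and 37.6 CPM with RapaLink-1. An antisense gene overlaps 16.1% of Sfrp2, so its value is uncertain.

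In the TGF-beta and BMP list, 14 of 25 were lower and 7 higher (16.4% and 16.7% of all genes), around a median of -0.12. Only 3 were lower, and none higher, in the test against a fold of 1.2. Tgfb3, a ligand, was at 238, 242 and 245 CPM with Torin1 and at 140, 147 and 133 CPM with RapaLink-1. The DMSO libraries lay at 119 to 122 CPM, below both, and the log2 fold change between compounds was -0.79 ± 0.022 (adjusted p = 1.46e-70). The latent TGF-beta binding protein gene Ltbp2 was at 94.6 CPM with DMSO, 340 ± 2.26 CPM with RapaLink-1 and 417 ± 7.22 CPM with Torin1. Inhba, the activin subunit, and Id3, a BMP target, were lower at -0.24 ± 0.023 and -0.20 ± 0.019, and the receptor gene Tgfbr2 at -0.27 ± 0.024.

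Contractile genes that serum response factor (SRF) drives were lower with RapaLink-1 almost throughout. SRF works with actin-sensing cofactors and sets the smooth muscle programme of activated fibroblasts. Of 24 tested, 21 were lower (16.4% of all genes) and none higher, with a median of -0.29, and 12 were also lower in the test against a fold of 1.2. Acta2, smooth muscle actin, was at 5720, 5670 and 5610 CPM with Torin1, 3450, 3450 and 3430 CPM with RapaLink-1 and 1660 to 1690 CPM with DMSO. Each compound had raised it, RapaLink-1 less, with a log2 fold change of -0.72 ± 0.013 between them (adjusted p = 1.16e-102). Actg2, the enteric actin, was at 81.8, 77.7 and 84.6 CPM with Torin1, 38.7, 35.1 and 37.1 CPM with RapaLink-1 and 15.6 to 16.8 CPM with DMSO. The myosin light chain gene Myl9, the tropomyosin gene Tpm2 and the calponin gene Cnn1 had the same order, at -0.69 ± 0.018, -0.41 ± 0.016 and -0.74 ± 0.03. The 4 muscle markers tested summed to 4.11 to 4.6 CPM with Torin1 and 1.98 to 2.52 CPM with RapaLink-1, with Myod1, Myog and Ckm at 0. Most of the sum was Acta1, at 2.99 ± 0.176 and 1.24 ± 0.142 CPM in that order. Myf5 and Tnnt3 were lower as well. Des went the other way without a call, at 0.211 ± 0.0258 CPM with Torin1 and 0.356 ± 0.0565 CPM with RapaLink-1. Whether muscle cells had a part in the list was not tested.

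The extracellular matrix followed the same direction. Of 37 collagens and structural matrix genes, 25 were lower and 6 higher (16.4% and 16.7% of all genes). Their median was -0.22, and Postn led those lower. Col6a3, a collagen VI chain, was at 700 to 708 CPM with DMSO, 419, 407 and 430 CPM with Torin1 and 246, 249 and 245 CPM with RapaLink-1. It had thus fallen farther with RapaLink-1, by -0.76 ± 0.019 (adjusted p = 1.17e-66). Thbs1, which encodes thrombospondin, had risen from 957 to 981 CPM with DMSO to 2190 ± 7.51 CPM with RapaLink-1 and 2940 ± 26.4 CPM with Torin1. Fbln5, the elastic fibre protein fibulin, was at 195 CPM with DMSO, 206 ± 5.38 CPM with Torin1 and 137 ± 2.7 CPM with RapaLink-1. Fibroblast markers, which share genes with this list, summed to 22700 to 23400 CPM with Torin1 and 20200 to 20600 CPM with RapaLink-1. Most of that difference lay in Fn1, which encodes fibronectin, at 8480 ± 374 CPM with Torin1 and 5930 ± 28.3 CPM with RapaLink-1. Of the 14, 9 were lower and 2 higher (1 higher without RapaLink-1 replicate 2 or Torin1 replicate 1), with a median of -0.14. Prrx1, a mesenchymal transcription factor, was at 835 ± 14.4 CPM with Torin1, 607 ± 5.12 CPM with RapaLink-1 and 710 CPM with DMSO. Decorin (Dcn), Thy1 and the PDGF receptor gene Pdgfrb were lower at -0.45 ± 0.025, -0.45 ± 0.026 and -0.13 ± 0.018. Vim, which encodes vimentin, was higher, at 4400 ± 29.3 CPM with Torin1 and 4700 ± 55.4 CPM with RapaLink-1 (0.0975 ± 0.013). Col5a1 was higher as well, at 0.0428 ± 0.0155. Not called were Col1a2, Col3a1 and S100a4, the last uncertain since 51.7% of it overlaps another gene. A part for a different share of fibroblasts was not tested.

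Mitotic genes were higher with RapaLink-1 in nearly the whole list, though by small folds. Their products separate chromosomes, and most are made only in dividing cells. Of 42 tested, 41 were higher (16.7% of all genes) and none lower, with a median of 0.23, and in the test against a fold of 1.2 the number was 6. The list had fallen from DMSO with each compound, at a median of -1.07 with RapaLink-1 and -1.34 with Torin1, comparisons that share the DMSO libraries. Top2a, the topoisomerase that untangles chromosomes, was at 849 to 862 CPM with DMSO, 405, 400 and 411 CPM with Torin1 and 488, 487 and 496 CPM with RapaLink-1. Mki67, the proliferation marker Ki-67, was at 393 to 397 CPM with DMSO, 141, 132 and 143 CPM with Torin1 and 172, 171 and 176 CPM with RapaLink-1. Neither gene had overlapping groups, and the log2 fold changes between compounds were 0.28 ± 0.016 (adjusted p = 2.49e-36) and 0.32 ± 0.022 (adjusted p = 1.58e-29). Anln, the cytokinesis protein anillin, and Kif11, a spindle motor, were at 0.27 ± 0.019 and 0.33 ± 0.025. Kif20a, a motor of cytokinesis, was at 0.34 ± 0.023 but is uncertain, since 33.2% of it overlaps an antisense gene.

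Promoters of mitotic genes often carry the cell cycle homology region, written here as TTTGAA, a site that holds these genes silent outside division. The motif was searched on both strands from 250 bases before to 50 bases after the start of each gene in RefSeq windows of GRCm38.p6. It occurred in 25 of the 34 list members with a window (73.5%) and in 20.2% of 27025 genes. Stretches around the match nearest the start are shown for Top2a (chr11:99024190-99024252, minus strand) and Mki67 (chr7:135716432-135716517, minus strand), the members with the smallest p that had one, with the match in capitals. In Top2a it reads on the opposite strand.
Top2a: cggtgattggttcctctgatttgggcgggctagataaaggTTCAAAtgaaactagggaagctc
Mki67: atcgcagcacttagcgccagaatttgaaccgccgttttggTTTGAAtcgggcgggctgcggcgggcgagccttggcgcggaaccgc
Their matches begin 23 and 98 bases before the start site. A match is a description of these letters and not a shown site.

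DNA replication genes had the same direction less uniformly, with 26 of 45 higher and 4 lower (16.7% and 16.4% of all genes) at a median of 0.09. The lower count was 2 with DESeq2, with no filter, and without RapaLink-1 replicate 1 or 3 or Torin1 replicate 1 or 3. Only 3 were higher, and none lower, in the test against a fold of 1.2. Rrm2, the ribonucleotide reductase subunit of S phase, was at 312 to 314 CPM with DMSO, 81.8, 78.4 and 77.8 CPM with Torin1 and 116, 111 and 114 CPM with RapaLink-1. The log2 fold change was 0.52 ± 0.024 (adjusted p = 9.29e-47), the largest of the list. Uhrf1 and Dnmt1, which copy DNA methylation, were at 0.37 ± 0.024 and 0.16 ± 0.019. The polymerase gene Pola1 and the origin-licensing gene Cdc6 were at 0.24 ± 0.032 and 0.40 ± 0.055. The E2F motif TTTNNCGC occurred in 17 of 37 members with a window (45.9%) and 5.93% of all genes. Of 11 tubulins, 10 were higher (16.7% of all genes) and none lower, with a median of 0.12. Tubb4b was at 144 ± 1.58 CPM with Torin1 and 177 ± 2.95 CPM with RapaLink-1, and Tuba1a at 548 ± 10.6 and 610 ± 3.97 CPM. No tubulin passed the test against a fold of 1.2. Of 13 replication-dependent histone genes 1 was higher and 1 lower around a median of 0.16 (15.4% called, beside 33.2% of all genes). The higher count was 2 without Torin1 replicate 2, and the lower count 0 with the filter at 5 CPM.

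Interferon response genes leaned higher with RapaLink-1. They include the MHC class I genes and sensors of foreign RNA. Of 31 tested, 17 were higher and 2 lower (16.7% and 16.4% of all genes), with a median of 0.21. The higher count was 11 with the filter at 5 CPM, and the lower count was 0 with DESeq2 and without RapaLink-1 replicate 2 or 3 or Torin1 replicate 2 or 3. In the test against a fold of 1.2, only 3 members were higher and none lower. H2-K1, an MHC class I heavy chain, was at 50.3 ± 0.651 CPM with Torin1, 76.1 ± 2.37 CPM with RapaLink-1 and 67.1 to 72.9 CPM with DMSO. Torin1 was the low group, and the log2 fold change between compounds was 0.60 ± 0.031 (adjusted p = 3.74e-41). H2-D1, another heavy chain, was at 93.4 ± 0.831 CPM with Torin1, 126 ± 0.466 CPM with RapaLink-1 and 88.4 CPM with DMSO, so here RapaLink-1 was the high group. The MHC genes are close copies of each other, which makes their separate values uncertain. B2m, the shared light chain, was at 330, 331 and 322 CPM with Torin1, 373, 377 and 384 CPM with RapaLink-1 and 252 to 254 CPM with DMSO, higher by 0.21 ± 0.017. Ddx58, the RNA sensor RIG-I, and Parp14 were higher at 0.28 ± 0.036 and 0.51 ± 0.067. The 3 macrophage and blood markers tested summed to 7.71 to 8.56 CPM with Torin1 and 7.95 to 9.27 CPM with RapaLink-1, with Tyrobp at 0.

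The core of the interferon-stimulated response element, GAAANNGAA, occurred in 12 of the 26 members with a promoter window (46.2%) and in 9.76% of all 27025 genes. Stretches are shown for B2m (chr2:122147508-122147596, plus strand) and Gbp3 (chr3:142559966-142560043, plus strand), again the members with the smallest p that had a match before the start. Gbp3, an interferon-induced GTPase, was at 8.62 ± 0.577 CPM with Torin1 and 10.4 ± 0.615 CPM with RapaLink-1. Capitals mark the match, which in Gbp3 lies on the opposite strand.
B2m: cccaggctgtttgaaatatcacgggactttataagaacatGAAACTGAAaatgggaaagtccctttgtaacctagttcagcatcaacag
Gbp3: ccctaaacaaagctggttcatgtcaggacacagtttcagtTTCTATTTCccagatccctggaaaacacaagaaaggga

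Cholesterol synthesis genes, which SREBP2 induces and complex 1 favours, were lower with RapaLink-1 in most of the list. Of 26 tested, 20 were lower and 1 higher (16.4% and 16.7% of all genes), with a median of -0.15. Only 1 was lower in the test against a fold of 1.2. Against DMSO the median was -1.30 with RapaLink-1 and -1.13 with Torin1, so the list lay lower with each compound. Cyp51, a sterol demethylase, was at 343 to 346 CPM with DMSO, 186, 185 and 182 CPM with Torin1 and 137, 140 and 145 CPM with RapaLink-1. The log2 fold change between compounds was -0.39 ± 0.021 (adjusted p = 1.05e-40). Msmo1, another demethylating enzyme, was at 129 ± 2.15 and 110 ± 2.03 CPM, and Mvd, of the mevalonate pathway, at 36.7 ± 1.33 and 29.0 ± 0.494 CPM. Fdps (-0.30 ± 0.031) and Fdft1 (-0.23 ± 0.024) share 26.7% and 26.8% of their exonic length with other genes and are uncertain. The sterol regulatory element TCACNCCAC occurred in 1 of 18 members with a window (5.56%) and in 1.44% of all genes. The match is in Hmgcs1 (chr13:119690174-119690262, plus strand), an early synthase of the pathway, at 169 ± 3.08 CPM with Torin1 and 152 ± 1.27 CPM with RapaLink-1, and is in capitals.
Hmgcs1: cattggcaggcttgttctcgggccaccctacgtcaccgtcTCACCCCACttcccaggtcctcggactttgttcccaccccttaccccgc

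Lysosomal genes, which TFEB and TFE3 induce when complex 1 is off, were higher with RapaLink-1 in 31 of 53 and lower in 4 (16.7% and 16.4% of all genes). The lower count was 2 without RapaLink-1 replicate 2. The median was 0.10, and 1 member was higher and 2 lower in the test against a fold of 1.2. Lamp1, a membrane protein of lysosomes, was at 991 to 1010 CPM with DMSO, 1170, 1180 and 1170 CPM with Torin1 and 1300, 1290 and 1300 CPM with RapaLink-1. All RapaLink-1 libraries were above those of Torin1, by 0.14 ± 0.014. Manba, a mannosidase, was at 3.12, 3.52 and 2.72 CPM with Torin1 and 5.91, 4.82 and 5.77 CPM with RapaLink-1, at a log2 fold change of 0.82 ± 0.11. Ctsa, a protective lysosomal peptidase, was at 0.11 ± 0.017, and an antisense gene overlaps 17.4% of it. In the other direction, Npc2, which carries cholesterol out of the lysosome, was at 565 ± 11.5 CPM with Torin1, 455 ± 3.28 CPM with RapaLink-1 and 238 CPM with DMSO. Lipa, the acid lipase that frees this cholesterol from its esters, was at 112 ± 1.1 and 89.0 ± 2.68 CPM. The TFEB motif CACGTGA occurred in 12 of 43 members with a window (27.9%) and in 4.29% of all genes.

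Messages of the mitochondrial genome were lower with RapaLink-1. Of 13 tested, 7 were lower (16.4% of all genes) and none higher, with a median of -0.27 that lay between -0.28 and -0.23 over the settings. The called members averaged 355 to 4590 CPM over the 6 libraries, and none passed the test against a fold of 1.2. Those not called averaged 0.16 to 1.31 CPM, too low to measure such a difference. They lie in a row on the mitochondrial genome, from base 7013 to base 10173, between mt-Co1 and mt-Nd4. Handling of multiply matching reads is not given and a loss of reads in this stretch was not tested, so these levels are uncertain. Together the 13 took 13700 to 13900 CPM with Torin1, 11700 to 11800 CPM with RapaLink-1 and 11100 to 11400 CPM with DMSO, nearly all of it in the called members. The cytochrome b gene mt-Cytb was at 2610, 2580 and 2550 CPM with Torin1 and at 2160, 2120 and 2120 CPM with RapaLink-1. The cytochrome oxidase gene mt-Co1 was at 5000, 4980 and 4930 CPM with Torin1 and at 4220, 4170 and 4200 CPM with RapaLink-1. Groups did not overlap in either, and the log2 fold changes were -0.27 ± 0.014 and -0.25 ± 0.013. For mt-Nd4, mt-Nd5 and mt-Nd1, of complex I of the respiratory chain, they were -0.27 ± 0.016, -0.20 ± 0.014 and -0.20 ± 0.014. A share of mitochondrial messages can also follow RNA quality, whose part was not tested. Nuclear genes of the respiratory chain had the same direction by less, with 34 of 55 lower and none higher at a median of -0.09. Cytosolic ribosomal protein genes, whose messages carry the terminal oligopyrimidine tract that complex 1 controls in translation, were lower in 75 of 79 and higher in none, at a median of -0.09, and none of them passed the test against a fold of 1.2. Single ribosomal protein genes may share reads with pseudogenes.

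Further lists lay closer to the median of all genes, of which 16.7% were higher and 16.4% lower. V-ATPase subunits, which acidify lysosomes, were higher in 11 of 16 and lower in 1, at a median of 0.08 (7 higher without Torin1 replicate 2). Chaperones of the endoplasmic reticulum were higher in 13 of 29 and lower in 1 (0 without RapaLink-1 replicate 3), at 0.07. Autophagy genes were called in 4 of 40 higher and 6 lower, aminoacyl-tRNA synthetases in 3 of 20 higher and 5 lower, and proteasome subunits in 2 of 33 higher and 4 lower. Those 3 lists had medians of 0.0017, -0.02 and -0.01, and 25%, 40% and 18.2% of their members were called, beside 33.2% of all genes. Each of the 20 synthetases averaged at least 30.0 CPM, and of all genes at 10 CPM or more 4217 of 9382 were called. Autophagy had 7 higher with upper-quartile scaling, the synthetases were at 3 lower in 8 of the settings and the proteasome at 1 to 5 higher and 2 to 5 lower outside the test against a fold of 1.2. The autophagy and proteasome medians changed sign in some settings. Glucose uptake and glycolysis genes had 8 higher and 4 lower of 25, and ATF4 targets 9 higher and 4 lower of 32 (1 to 5 lower over the settings other than the test against a fold of 1.2). In both lists the share lower did not exceed that of all genes. The antioxidant targets of NRF2 had 10 higher and 3 lower of 21 at a median of 0.07. Ribosome biogenesis genes had none higher and 13 lower of 48 at -0.04 (8 to 17 lower outside the test against a fold of 1.2), and translation factors 6 higher and 16 lower of 42 (10 lower without RapaLink-1 replicate 2 or Torin1 replicate 1).

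Lists tied to stress, growth control and inflammation had called members in both directions, where 16.7% of all genes were higher and 16.4% lower. Targets of p53 were higher in 10 of 24 and lower in 4 at a median of 0.09, and cytosolic heat shock proteins in 10 and 5 of 24 at 0.03 (2 lower without RapaLink-1 replicate 1 or 3 or Torin1 replicate 1 or 2). Targets of YAP and TEAD, which respond to cell shape, were higher in 8 and lower in 8 of 22. Immediate early genes were higher in 9 and lower in 10 of 26, and feedback genes of the kinase ERK in 7 and 5 of 18. The cyclins and inhibitors of G1 were higher in 6 and lower in 7 of 20, matrix proteases and their inhibitors in 9 and 8 of 24, and complement genes in 1 and 3 of 11 (36.4% called, near the 33.2% of all genes). Cytokines, chemokines and NF-kB targets were higher in 8 and lower in 13 of 30 at -0.05. Among smaller metabolic lists, nucleotide synthesis had 7 higher and 4 lower of 24, and fatty acid oxidation 5 and 5 of 22. Fatty acid synthesis had 2 and 4 of 18 (2 lower without Torin1 replicate 1), or 33.3% called, beside 33.2% of all genes. Most of its members were above 10 CPM, where 4217 of 9382 genes were called.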

How the data were processed

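Whole-number read counts per gene, deposited by the authors as 1 table per library and made with featureCounts per the file headers, were used unchanged. The submitters' processing notes name the build GRCm38 and the tools STAR 2.5.2b, Trimmomatic 0.36, DESeq2 and Subread 1.5.2. Not given in the sources used here: strand setting, annotation release and handling of multiply matching reads. Overlapping genes and close copies are therefore called uncertain. CPM is a share of the library, so a change in total RNA per cell cannot be seen. Symbols came from GENCODE M21 and promoters from RefSeq GRCm38.p6.

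edgeR 4.0.16 in R 4.3.3 was used with filterByExpr by group, TMM factors and a robust quasi-likelihood fit of all 12 libraries with group as its term (8 residual degrees of freedom). The contrast RapaLink-1 minus Torin1 was tested on both sides, with Benjamini-Hochberg adjustment over 15917 genes and calls at an adjusted p under 0.05. Intervals are 95% intervals of the log2 fold change from that fit. The smallest p that an exact permutation test can give for 3 against 3 libraries is 0.1.

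Of 55 gene lists, 20 are described with members: the 14 with medians farthest from that of all genes and 6 on mTOR and its feedback. Named genes are the 15 largest differences each way among called genes at 10 CPM or more, without overlap between groups or a provisional symbol, 8 on opposite sides of DMSO, in each described list the 5 of smallest p, and all mTOR subunits and FK506-binding proteins. The text may name fewer, and further list members are named where they limit a sum or a count. Members and lists were chosen with earlier results of these data known. No shared deviation of same-numbered libraries of the compounds was seen over all genes tested, so numbers were taken as names only. Alternatives were other scalings, filters and tests, a replicate block and leaving out each library. One result is not reported here.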

Additional observations from a re-analysis of the deposited data

How the results depend on the processing

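Over 14 alternative settings the number of genes higher with RapaLink-1 ran from 2331 to 2978 and the number lower from 1939 to 2649, except in the test against a fold of 1.2, which called 220 higher and 545 lower, 101 of them at least 1.5-fold higher. A filter at a mean of 5 CPM left 31 genes at least 1.5-fold higher and 166 lower, since it tests fewer genes of low level. Without 1 library the calls were 2473 to 2562 higher and 2162 to 2288 lower, and those of at least 1.5-fold 171 to 194 higher and 429 to 472 lower. DESeq2 called 2410 higher and 1939 lower. No pairing by replicate number was seen, as deviations of same-numbered libraries over all genes tested correlated at 0.0081, 0.0102 and -0.0045. Noisy genes of low level count fully in these values, so a small shared shift could be missed. A replicate block gave 2681 higher and 2641 lower, with 5271 genes called in the same direction as without it. No scaling moved the median of all genes by more than 0.011. Of 144 genes followed through the settings, 123 were called and none reversed, and all 50 that lost a call in some setting did so in the test against a fold of 1.2. Depth limits genes of low level: the median SE of the log2 fold change was 0.35 below 1 CPM, 0.13 from 1 to 10 CPM and 0.035 above. Calls followed level too, at 238 of 3099 genes below 1 CPM, 822 of 3436 from 1 to 10 CPM and 4217 of 9382 above.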

Other observations

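Genes in these paragraphs fall outside the naming rule and were chosen after their values were seen. Genes that encode cell cycle inhibitors of the INK4 family went both ways, and counts per gene do not separate different transcripts of a gene. Cdkn2a was at 448, 453 and 450 CPM with Torin1, 301, 294 and 293 CPM with RapaLink-1 and 350 CPM with DMSO, a log2 fold change of -0.61 ± 0.017, and Cdkn2b at 111, 116 and 113 CPM, 75.2, 72.3 and 71.7 CPM and 74.8 CPM in that order. Cdkn2c and Cdkn2d were higher, at 32.9 ± 0.47 and 11.4 ± 0.504 CPM with Torin1 and 38.8 ± 1.02 and 14.3 ± 0.522 CPM with RapaLink-1, by 0.24 ± 0.038 and 0.33 ± 0.062. Cdkn1a, which encodes p21 of another family, was higher at low level, with 0.258, 0.539 and 0.347 CPM with Torin1, 1.08, 0.959 and 1.11 CPM with RapaLink-1 and 4.34 CPM with DMSO. Among inflammatory genes, 8 of 30 were higher and 13 lower, where 16.7% of all genes were higher and 16.4% lower. Il6 was at 28.5, 28.6 and 28.2 CPM with Torin1, 15.2, 14.7 and 13.9 CPM with RapaLink-1 and 4.54 CPM with DMSO, and Ccl5 and Ppbp were lower with RapaLink-1 by -0.83 ± 0.043 and -0.87 ± 0.033. The chemokine gene Ccl2 went the other way, from 490, 493 and 491 CPM with Torin1 to 646, 640 and 652 CPM with RapaLink-1, as did Cxcl10 at 3.93 ± 0.325 and 7.55 ± 0.711 CPM.

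Below 10 CPM, the genes named here as higher with RapaLink-1 differed by more than Klf2, the largest one named above that level. Those named here as lower did not differ by more than Ndnf. The median SE was 0.13 from 1 to 10 CPM and 0.35 below 1 CPM, against 0.035 above 10 CPM. Values picked for their size are therefore less certain here. Lamb3, which encodes a chain of a basement membrane laminin, was at 1.35 ± 0.0361 CPM with Torin1 and at 3.07 ± 0.233 CPM with RapaLink-1, with a log2 fold change of 1.19 ± 0.16. Lgr6, an R-spondin receptor, and Spib, an ETS family factor, were higher at 1.25 ± 0.14 and 1.24 ± 0.14. Spib was at 0.188 CPM with DMSO and 0.401 CPM with rapamycin. In the other direction, the smooth muscle myosin gene Myh11 was at 3.28 ± 0.347 CPM with Torin1, 0.761 ± 0.0749 CPM with RapaLink-1 and 0.314 CPM with DMSO. The thyroid hormone deiodinase genes Dio2 and Dio3 were lower by -1.78 ± 0.14 and -1.96 ± 0.25, and Pappa2, a relative of Pappa, by -1.71 ± 0.17. Fgf23, a phosphate-regulating hormone of bone, was at 2.09 ± 0.258 CPM with Torin1 and 0.567 ± 0.032 CPM with RapaLink-1.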
